A study of Homo sapiens with 12 samples.

Results

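The genes described here are 41 human genes of glycolysis and of the response to low oxygen, listed by symbol: glucose transporters, the enzymes from hexokinase to lactate dehydrogenase, the PFKFB regulators, acid transporters and carbonic anhydrases, and genes known as targets or regulators of the transcription factor HIF-1. A gene was taken as measured when the array held a probe named for that gene alone, by its symbol or an older alias. This gave 38 of the 41 genes, out of 18665 genes with a probe on the array, and 69 probes in all. SLC16A1, SLC16A3 and CA9 had no such probe and were not analysed here. Of the 38 genes, 36 passed the filter on dim genes, which asks for a signal over the background limit on 3 or more of the 12 arrays, and were tested, as were 10642 genes in the whole series. EGLN3 was above background on none of the arrays, and PDK1 on 1 U87MG co-culture array and 1 U87MG monoculture array. These 2 genes, a hydroxylase of HIF and the kinase that inactivates pyruvate dehydrogenase, were not tested.

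U373 and U87MG are established human glioblastoma cell lines, that is, they derive from a malignant brain tumour of glial origin. RNA was hybridized to 12 Illumina HumanWG-6 v3 BeadChip arrays in 4 groups of 3 biological replicates: U373 co-culture, U373 monoculture, U87MG co-culture and U87MG monoculture. In indirect co-culture the lines first settled for 3 h and then shared 3 ml of medium for 72 h across a membrane whose 0.4 µm pores pass molecules but not cells. The medium held 10% serum and pyruvate. In every culture the insert (1 ml) was for U373 cells and the bottom chamber (2 ml) for U87MG cells. A monoculture held 1 line in the same 3 ml, so the presence of the other line cannot be told apart from the larger number of cells per volume of medium, and line and chamber cannot be told apart either. The labels name no change of oxygen or glucose.

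Glycolysis splits glucose into pyruvate, and lactate dehydrogenase turns pyruvate into lactate, which restores the cofactor that the pathway needs to go on. Many tumour cells, glioblastoma cells among them, send much of their glucose this way even when oxygen is present. When oxygen is low, the EGLN hydroxylases no longer mark HIF-1α for destruction, and the HIF-1 complex binds the core sequence RCGTG near genes of glycolysis, acid export, blood vessel growth and mitochondrial turnover and raises their transcription.

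All values below are signals on a log2 scale, given per replicate in the order 1, 2 and 3, and a log2 difference of 1 is a doubling of the signal. A call is an adjusted p under 0.05 by limma with Benjamini-Hochberg adjustment over the 10642 genes, and errors of differences are standard errors (SE) of that fit. Over all probes, Pearson correlations ran from 0.9768 to 0.9888 within groups and from 0.9091 to 0.9269 between lines. Of 10 astrocyte and glioma markers, 7 were above background on all 3 arrays of each U373 group and 5 on all 3 of each U87MG group. GFAP and SOX2, which define astrocytes and neural precursors, were at background on every U87MG array. Of 5 measured neuron markers, 3 (SNAP25, SYT1 and GAP43) were above it on all U87MG co-culture arrays, and SNAP25 on all U373 co-culture arrays too. The oligodendrocyte marker OLIG2 and the endothelial markers PECAM1 and TEK were above it on all U87MG arrays. MBP and CDH5, of the same marker lists, were above it on all U373 co-culture arrays. The summed log2 level of the 5 neuron markers was 20.4 to 21.4 on U373 monoculture arrays and 25.5 to 26.9 on U87MG monoculture arrays, and the part of such differences in the results below was not tested.

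The comparison of the lines asked where U373 and U87MG monocultures differ in these genes. Of the 36 tested genes, 23 were lower and 4 higher in U373 cells. Over all genes tested, 31.2% were lower and 27.9% higher, against 63.9% and 11.1% of the listed genes. The median difference of the 36 genes was -0.73, and that of all genes -0.05. Of the 23 lower genes, 11 were lower by at least 1 on the log2 scale (30.6% of the listed genes, against 12.8% of all genes), and none of the 4 higher genes reached a difference of 1, against 13.5% of all genes. The 23 include ANGPTL4 and MXI1, and the 11 include ANGPTL4. Both genes were above background on U87MG arrays only, so passing the filter fixed their direction, and their calls are no support for it. Lactate dehydrogenase A, carbonic anhydrase XII and aldolase C stood apart, with signals 26.5-fold to 31.9-fold lower in U373 cells by probes above background on all arrays.

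**Figure D1:**
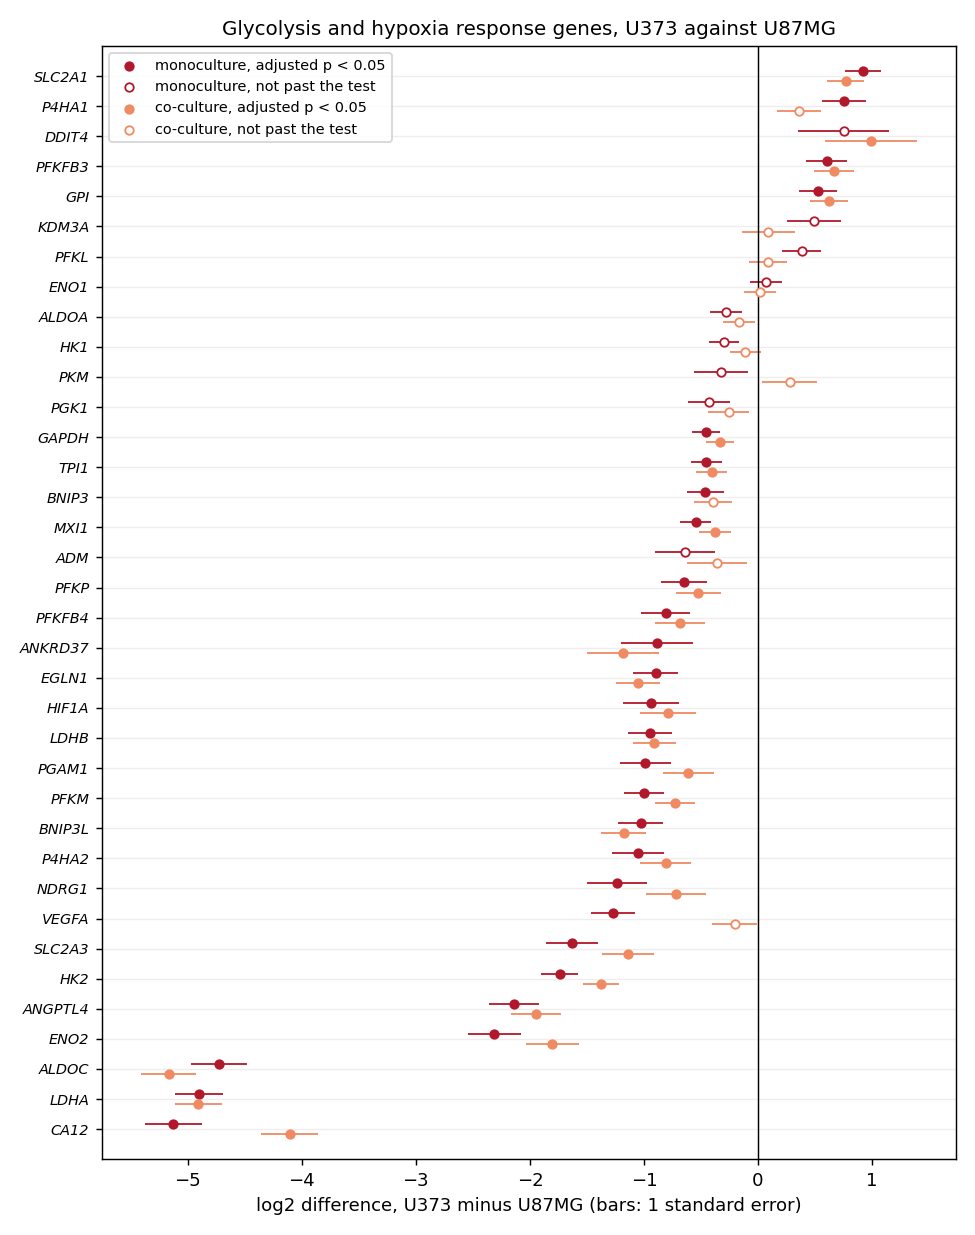
Log2 difference of the signal, U373 minus U87MG, for the 36 tested genes in monoculture (dark red) and co-culture (orange), with bars of 1 standard error, ordered by the monoculture difference. Filled points passed an adjusted p of 0.05 (limma). In monoculture 23 filled points lie below 0 and 4 above, and CA12, LDHA and ALDOC lie below -4 in both culture types.

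The signals of the 2 main glucose transporters differed in opposite directions. SLC2A1, the widely expressed transporter GLUT1, had 11.22, 11.33 and 10.89 in U373 monoculture, against 10.15, 10.20 and 10.32 in U87MG monoculture. All U373 arrays were above all U87MG arrays, and the difference was 0.92 (SE 0.16, adjusted p = 0.000148). SLC2A3, the high-affinity transporter GLUT3 known from neurons, had 8.37, 8.88 and 8.63 in U373 monoculture, against 10.46, 10.29 and 10.03 in U87MG monoculture. Here every U373 array was below every U87MG array, and the difference was -1.63 (SE 0.23, adjusted p = 1.93e-05).

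Of the kinases and the isomerase that act on hexoses, HK2, the hexokinase that many tumours induce, had 5.98, 6.36 and 6.44 in U373 monoculture, against 7.75, 8.10 and 8.15 in U87MG monoculture. The groups did not overlap, the difference was -1.74 (SE 0.16, adjusted p = 1.65e-07), and both HK2 probes gave it, at -1.84 and -1.64. GPI, the isomerase of glucose phosphate, was higher in U373 cells by 0.53 (SE 0.16, adjusted p = 0.0126). That call was lost without U87MG monoculture replicate 2 (adjusted p = 0.0509) or U373 monoculture replicate 3 (0.0526). HK1, the hexokinase of most tissues, did not pass over its 4 probes (-0.30, adjusted p = 0.0627), but passed over the 2 probes above background (-0.60, adjusted p = 0.0133).

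The phosphofructokinases, which control the committed step, differed by subunit. PFKM, the muscle type, had 7.89, 8.41 and 8.08 in U373 monoculture, against 9.10, 9.32 and 8.94 in U87MG monoculture, and was lower without overlap (SE of the difference 0.17, adjusted p = 0.000156). PFKP, the platelet type, had a difference of -0.65 (adjusted p = 0.0114), or -0.95 by its probe above background. The PFKP call over both probes was lost without U373 monoculture replicate 2 (adjusted p = 0.0655). PFKL, the liver type, was not past the test over 2 probes (0.38, adjusted p = 0.0623, or 0.0449 with the replicate number as a block), while its probe above background was higher in U373 cells by 0.71 (adjusted p = 0.00075). The PFKFB enzymes set the level of an activator of phosphofructokinase and split as well. PFKFB3 was higher in U373 cells by 0.60 (SE 0.18, adjusted p = 0.00845), with 9.94, 10.19 and 10.18 in U373 monoculture against 9.71, 9.34 and 9.45 in U87MG monoculture. PFKFB4 was lower (-0.81, SE 0.22, adjusted p = 0.00483).

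Aldolase C, the brain type of the enzyme that splits fructose bisphosphate, had 5.87, 6.25 and 5.91 in U373 monoculture, against 10.86, 11.09 and 10.26 in U87MG monoculture. The gap between the lowest U87MG and the highest U373 array was many times the spread within either line. The ALDOC difference was -4.73 (SE 0.24, adjusted p = 1.93e-10), a 26.5-fold lower signal. ALDOA, the aldolase of most tissues, did not pass over its 4 probes (-0.28, adjusted p = 0.0958) but did over the 2 probes above background (-0.37, adjusted p = 0.0325). The triose isomerase TPI1 was lower by a smaller amount (-0.45, SE 0.14, adjusted p = 0.00979).

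Among the 6 enzymes that turn triose phosphate into pyruvate, 3 were lower in U373 cells (50%, against 31.2% of all genes) and none higher (against 27.9%). ENO2, the neuronal enolase, had 8.25, 8.21 and 8.97 in U373 monoculture, against 10.71, 10.71 and 10.94 in U87MG monoculture, with no overlap and a difference of -2.31 (SE 0.23, adjusted p = 5.76e-07). ENO1, the enolase of most tissues, differed by 0.07 (SE 0.14, adjusted p = 0.702). The mutase PGAM1 was lower (-0.99, SE 0.22, adjusted p = 0.00134). GAPDH, a reference gene for RT-qPCR in the study, was lower by all 3 of its probes (-0.48, -0.43 and -0.45) and by -0.45 over them (SE 0.12, adjusted p = 0.00472). TBP and HPRT1, the reference genes of a separate RT-qPCR run in the study, differed by -0.01 and 0.03 and did not pass. They belong to a list of 7 tested reference genes besides GAPDH. Of these, YWHAZ (-0.89) and SDHA (-0.46) were lower (28.6%, against 31.2% of all genes). GUSB (0.58) was higher (14.3%, against 27.9%). PGK1, the kinase that makes the first ATP of this stage, was just short of the threshold (-0.43, adjusted p = 0.0522) and passed with the replicate number as a block (adjusted p = 0.0277). PKM, pyruvate kinase, did not pass (-0.32, adjusted p = 0.259), and its 3 probes ran from -0.78 to 0.21.

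At the end of the pathway, LDHA, the subunit that favours lactate formation, was measured by 1 probe. It had 9.17, 8.63 and 9.42 in U373 monoculture, against 13.89, 13.95 and 14.11 in U87MG monoculture. All 6 values were above background, and the lines were separated by more than 4 log2 units on every pair of arrays. The difference was -4.90 (SE 0.21, adjusted p = 2.26e-11), a 29.9-fold lower signal. LDHB, the subunit of oxidative tissues, was lower too, by 1 probe (-0.95, SE 0.19, adjusted p = 0.000528). Probe sequences were not used here, so whether a probe also reads a near-identical copy of its gene, or lies over a base that differs between the lines, was not tested.

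CA12 encodes carbonic anhydrase XII, a membrane enzyme that hydrates carbon dioxide outside the cell and helps to dispose of acid. Over its 2 probes it had 4.25, 5.02 and 5.17 in U373 monoculture, against 10.02, 10.08 and 9.71 in U87MG monoculture. The lines did not overlap, and the difference was -5.13 (SE 0.25, adjusted p = 9.59e-11), which is no exact size, since 1 of the probes was above background on none of the U373 monoculture arrays. By the CA12 probe above background on all 12 arrays the difference was -4.99 (SE 0.21, adjusted p = 2.46e-11), a 31.9-fold lower signal.

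**Figure D2:**
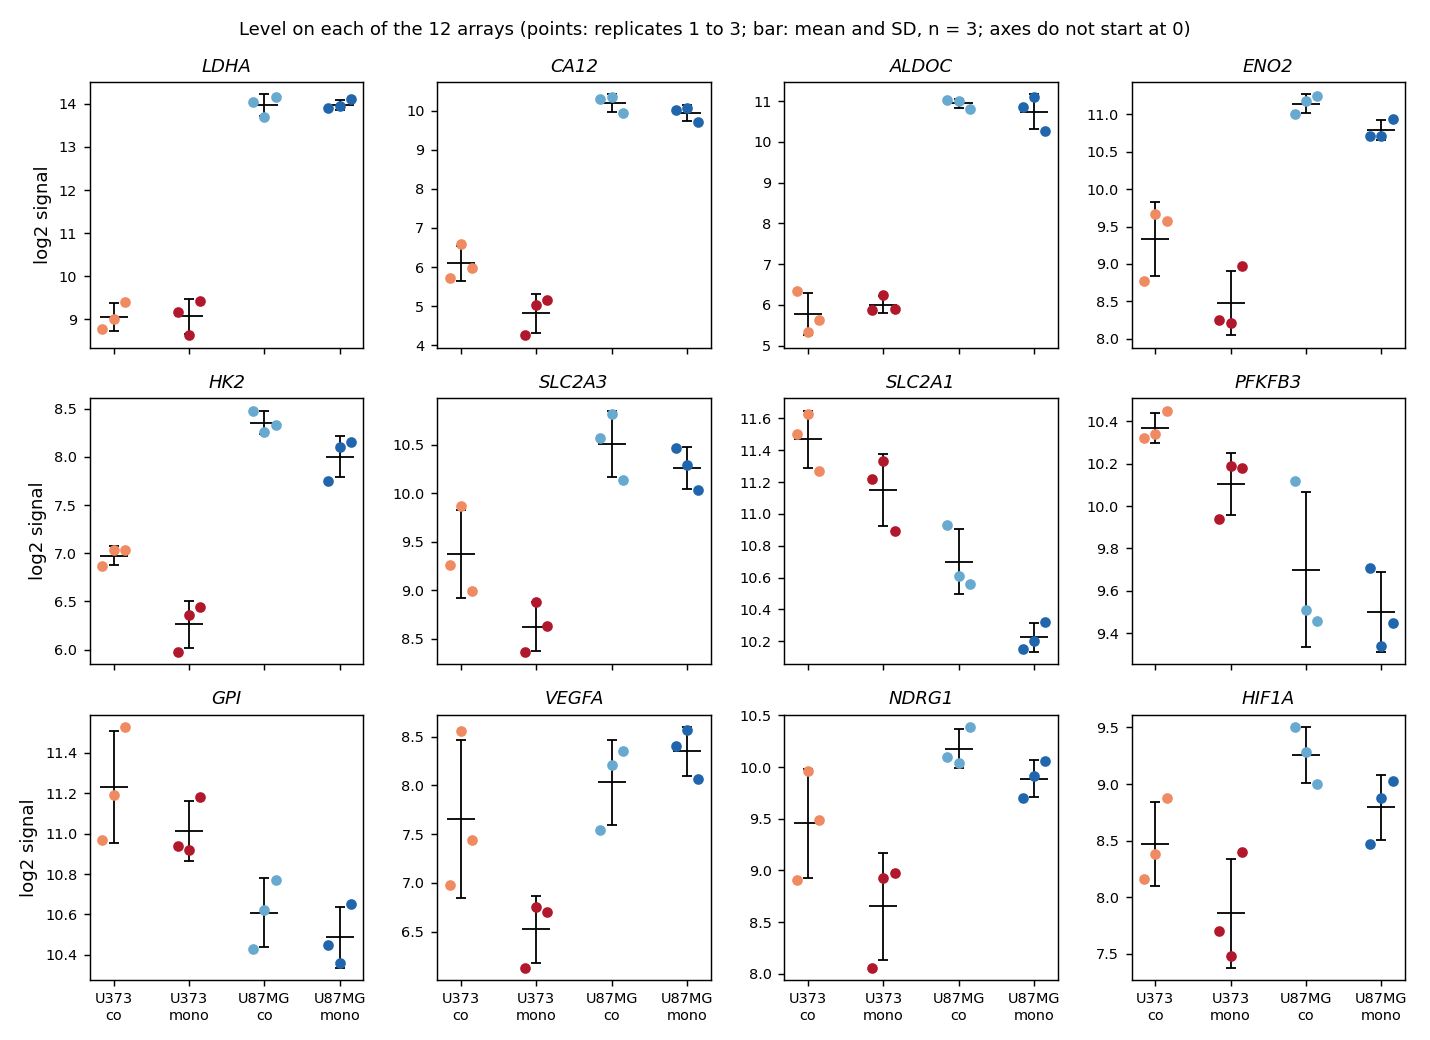
Log2 signal of 12 genes on each array (points are replicates 1 to 3, bars the mean and SD, n = 3), in U373 co-culture, U373 monoculture, U87MG co-culture and U87MG monoculture; probes of a gene not above background on at least 3 arrays are left out, and the axes do not start at 0. LDHA lies at 8.63 to 9.42 on the 6 U373 arrays and at 13.69 to 14.16 on the 6 U87MG arrays, while SLC2A1, PFKFB3 and GPI are higher in U373 cells.

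HIF1A, the oxygen-regulated subunit of HIF-1, was lower in U373 cells at the RNA level, and so was EGLN1, the main hydroxylase that acts on it. HIF1A had 7.70, 7.48 and 8.40 in U373 monoculture, against 8.47, 8.88 and 9.03 in U87MG monoculture. The highest U373 array lay just under the lowest U87MG array, and the difference was -0.94 (SE 0.24, adjusted p = 0.00398). The 3 HIF1A probes gave -1.19, -1.38 and -0.24. EGLN1 had a difference of -0.90 (SE 0.19, adjusted p = 0.00102).

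Of the secreted signals, VEGFA, the growth factor of blood vessels, had 6.13, 6.75 and 6.70 over its 2 probes above background in U373 monoculture, against 8.40, 8.57 and 8.07 in U87MG monoculture. The groups were more than 1 log2 unit apart. Over those probes the difference was -1.83 (adjusted p = 0.000216), and over all 3 probes -1.27 (SE 0.19, adjusted p = 4.63e-05). ANGPTL4, a secreted inhibitor of lipoprotein lipase, was above background by 1 of 3 probes and only in U87MG cells. That probe had 3.07, 3.45 and 2.88 in U373 monoculture, against 7.81, 7.52 and 8.62 in U87MG monoculture. As the U373 values are not well above background, ANGPTL4 in U373 cells was at least 7.22-fold lower (adjusted p = 2.47e-08 by this probe). The bound sets the U87MG mean against the higher, on each U373 array, of its lowest signal above background and the probe's own value. ADM, the vasodilator peptide adrenomedullin, was just short of the threshold (-0.64, adjusted p = 0.0502) and passed with the replicate number as a block (adjusted p = 0.0245).

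The mitophagy receptors BNIP3L and BNIP3, which tag mitochondria for removal, were both lower, BNIP3L by a difference of -1.03 (SE 0.20, adjusted p = 0.00041) and BNIP3 by one of -0.46 (SE 0.16, adjusted p = 0.0247). The BNIP3 call was lost without U373 monoculture replicate 1 (adjusted p = 0.101), U87MG monoculture replicate 1 (0.0666) or U87MG monoculture replicate 3 (0.0505). The catalytic subunits of the collagen prolyl hydroxylase went opposite ways. P4HA1 was higher in U373 cells (0.75, SE 0.19, adjusted p = 0.00385, or 0.96, adjusted p = 0.00184, by its probe above background), and P4HA2 was lower (-1.05, SE 0.22, adjusted p = 0.000899). P4HA2 was lower by each of its 3 probes, from -2.05 to -0.47, and the probe with -2.05 was above background on 1 U373 monoculture array.

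NDRG1, a stress-induced gene used as a marker of hypoxia, had 8.06, 8.93 and 8.98 in U373 monoculture, against 9.70, 9.91 and 10.06 in U87MG monoculture. The groups did not overlap, and the difference was -1.23 (SE 0.26, adjusted p = 0.000848). ANKRD37, a HIF-1 target with ankyrin repeats, was lower (-0.89, SE 0.32, adjusted p = 0.0249), but the groups overlapped. That call was lost without U373 monoculture replicate 1 (adjusted p = 0.0793) or 2 (0.105) or U87MG monoculture replicate 1 (0.0535) or 3 (0.131). MXI1, an antagonist of MYC, was above background by 1 of 4 probes, on no U373 monoculture array and on 1 U87MG monoculture array, so its call (-0.55, adjusted p = 0.00322) rests on signals near background and no fold is given. DDIT4, an inhibitor of mTORC1 signalling, and KDM3A, a histone demethylase, did not pass (0.75, adjusted p = 0.121, and 0.49, adjusted p = 0.0844).

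To show the sequence context of 3 genes with large differences and of 1 that was higher, the 250 bases before the annotated transcription start were taken from RefSeq (GRCh38.p14). Capitals mark the HIF core words ACGTG and GCGTG, read on both strands, so that CACGT and CACGC are also marked; CACGTG holds the word on both strands and counts as 2. CA12, with 1 word, lies at chr15:63381847-63382096 on the minus strand, LDHA (the most upstream of 2 listed starts), with 5 words, at chr11:18394313-18394562 on the plus strand, and ALDOC, with 5 words, at chr17:28576896-28577145 on the minus strand. SLC2A1, shown as a gene that was higher, lies at chr1:42958869-42959118 on the minus strand and has no word in this window. Each is printed 5′ to 3′ along the gene's own strand.
CA12: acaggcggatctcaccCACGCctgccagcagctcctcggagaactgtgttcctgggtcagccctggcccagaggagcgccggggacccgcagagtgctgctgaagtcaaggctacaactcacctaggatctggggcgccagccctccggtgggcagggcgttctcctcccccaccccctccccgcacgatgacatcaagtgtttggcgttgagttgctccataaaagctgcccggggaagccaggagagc
LDHA: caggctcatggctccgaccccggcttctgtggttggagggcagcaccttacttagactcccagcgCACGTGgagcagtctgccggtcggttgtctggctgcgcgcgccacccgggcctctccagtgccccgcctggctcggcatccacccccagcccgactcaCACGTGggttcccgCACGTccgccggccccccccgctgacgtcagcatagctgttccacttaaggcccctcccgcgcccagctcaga
ALDOC: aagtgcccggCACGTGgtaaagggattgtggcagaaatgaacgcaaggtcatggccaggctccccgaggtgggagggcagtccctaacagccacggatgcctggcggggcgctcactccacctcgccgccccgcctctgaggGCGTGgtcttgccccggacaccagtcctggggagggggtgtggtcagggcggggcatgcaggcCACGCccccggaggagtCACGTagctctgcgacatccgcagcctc
SLC2A1: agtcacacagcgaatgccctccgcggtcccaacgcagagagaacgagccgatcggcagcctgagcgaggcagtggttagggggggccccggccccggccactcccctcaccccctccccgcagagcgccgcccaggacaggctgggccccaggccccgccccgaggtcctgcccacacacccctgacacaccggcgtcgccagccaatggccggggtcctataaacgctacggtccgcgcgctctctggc

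In LDHA the words began 185, 184, 87, 86 and 73 bases before the start, and in ALDOC 240, 239, 108, 45 and 28. A window was listed for 36 of the 41 genes. Of these, 23 held at least 1 word (63.9%), against 49.9% of 14783 genes with a probe on the array and 43.1% of 27305 genes. Each gene was taken with 1 start, and the 14783 include genes too dim to be tested. By call, the word was in 12 of the 19 windows of lower genes (63.2%), in 3 of the 4 of higher genes (75%) and in 7 of the 9 of genes that did not pass (77.8%). The palindrome CACGTG, which other factors such as MYC and USF also bind, was in 5 of the 36 (13.9%), against 7.64% of the 14783 and 6.46% of the 27305. Those 5 were LDHA, ALDOC, ANKRD37, BNIP3 and GAPDH, all of which were lower in U373 monoculture. It was in none of the windows of the 4 higher genes (SLC2A1, GPI, PFKFB3 and P4HA1) and in none of the 9 that did not pass. With a share of 7.64%, sets of 4 and 9 windows are too small to read this. Shares by call over all genes were not taken, so the palindrome is not tied to a direction. The calls of ANKRD37 and BNIP3 were also lost when some arrays were left out. These are counts of letters, and binding was not measured.

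In co-culture the lines differed in much the same set of genes. In U373 co-culture, 21 of the 36 genes were lower than in U87MG co-culture (58.3%, against 31.6% of all genes) and 4 higher (11.1%, against 25.6%). The medians were -0.46 and -0.06. The 21 again include ANGPTL4 and MXI1, above background on U87MG arrays only. Of the calls, 24 were made in both culture types. Over all genes tested, 6296 were called in monoculture and 6092 in co-culture. How many of them were called in both was not counted, so the 24 are not read as particular to the listed genes. P4HA1, BNIP3 and VEGFA passed in monoculture and not in co-culture, and DDIT4 in co-culture and not in monoculture. The differences were -4.91 for LDHA (SE 0.21), -5.17 for ALDOC (SE 0.24), -4.11 for CA12 (SE 0.25) and -1.80 for ENO2 (SE 0.23), and SLC2A1 was again higher, by 0.77 (SE 0.16, adjusted p = 0.000754). VEGFA over all probes had a difference of -0.20 (SE 0.19, adjusted p = 0.388). By their probes above background, P4HA1 and PFKL were higher in U373 co-culture (0.98, adjusted p = 0.00164, and 0.42, adjusted p = 0.0233).

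DDIT4 had 11.55, 12.89 and 11.72 in U373 co-culture, against 11.63, 11.66 and 9.90 in U87MG co-culture. The groups overlapped, and 1 array on each side stood away from the others. The DDIT4 difference of 0.99 (SE 0.40, adjusted p = 0.046) was lost without U373 co-culture replicate 2 (0.57, adjusted p = 0.23) or U87MG co-culture replicate 3 (0.41, adjusted p = 0.285), and, with adjusted p of 0.0521 to 0.0611, without any U87MG monoculture array or U373 monoculture replicate 1 or 2, which enter through the shared spread. Calls in co-culture lost without U373 co-culture replicate 1 were GAPDH, HIF1A, MXI1, NDRG1, PFKP, PGAM1 and TPI1, with adjusted p of 0.0523 to 0.145. Without U87MG co-culture replicate 1 they were GAPDH, HIF1A, MXI1, PFKFB4, PFKP, PGAM1 and TPI1, with adjusted p of 0.0543 to 0.118. In both cases 18 of the 25 calls remained. Over all genes, the 6092 calls became 5702 without U373 co-culture replicate 1 and 5430 without U87MG co-culture replicate 1. Without U87MG co-culture replicate 3, DDIT4, GAPDH, NDRG1, PFKP, PGAM1 and TPI1 were lost (adjusted p of 0.066 to 0.285), without U373 co-culture replicate 2, DDIT4, GAPDH, PFKFB4 and PGAM1 (0.0556 to 0.23), without U373 co-culture replicate 3, NDRG1 (0.0504) and PFKP (0.124), and without U87MG co-culture replicate 2, MXI1 (0.128).

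The second question was whether sharing medium with the other line moved these genes within a line. In U373 cells none of the 36 genes passed when co-culture was set against monoculture, where 0.113% of all genes (12) did. At an unadjusted p under 0.05 there were 9, all higher in co-culture (25% of the 36, against 9.51% of all genes in either direction and 5.98% higher). The difference was above 0 for 33 of the 36 (91.7%), against 54.7% of all genes, and the medians were 0.34 and 0.03. On simulated data the same test recovered 74% of log2 differences of 1 and 14% of differences of 0.5. Those data held 50 changed genes at each size, with independent noise. More changed genes ease the adjusted threshold, so these shares do not carry over to a comparison with 12 calls. What size of change 3 arrays a group could call here was not tested.

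CA12 had 5.71, 6.59 and 5.97 in U373 co-culture, against 4.25, 5.02 and 5.17 in U373 monoculture. All co-culture arrays were above all monoculture arrays, and the difference was 1.28 (SE 0.25, adjusted p = 0.06). It includes the probe that was above background on no U373 monoculture array and on 2 U373 co-culture arrays. The other CA12 probe had 6.92, 7.70 and 7.07 in U373 co-culture, against 5.98, 6.48 and 6.45 in U373 monoculture, also without overlap and with a smaller difference (0.92, SE 0.21, adjusted p = 0.142). HK2 had 6.87, 7.03 and 7.03 in U373 co-culture, against 5.98, 6.36 and 6.44 in U373 monoculture, without overlap (0.71, SE 0.16, adjusted p = 0.116). VEGFA, over the probes above background, had 6.98, 8.56 and 7.44 in U373 co-culture, against 6.13, 6.75 and 6.70 in U373 monoculture. The VEGFA groups did not overlap either, with a difference of 0.76 over all probes (SE 0.19, adjusted p = 0.177) and 1.13 over those probes (adjusted p = 0.246). The others of the 9 were ENO2 (0.86), NDRG1 (0.80), ADM (0.80), SLC2A3 (0.74), HIF1A (0.61) and BNIP3L (0.53), with adjusted p of 0.208 to 0.44. LDHA, with -0.01 (SE 0.21), ENO1 with -0.14 (SE 0.14) and ALDOC with -0.24 (SE 0.24) were the 3 genes below 0. The groups were fully separated with co-culture higher for 8 genes (22.2%, against 6.44% of all genes) and with co-culture lower for 1 gene, ENO1 (2.78%, against 5.38%).

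These counts depended on U373 co-culture replicate 1, which was the lowest of its group for 27 of the 36 genes, while it was the lowest for 39.8% of all genes. Without it 5 genes were higher in U373 co-culture: CA12 (1.47, adjusted p = 0.015), ENO2 (1.14, adjusted p = 0.0184), VEGFA (0.93, adjusted p = 0.0348), HK2 (0.77, adjusted p = 0.0486) and NDRG1 (1.07, adjusted p = 0.0486), and 155 of all genes were called. By its probe above background on all arrays, CA12 had 1.08 in that fit (adjusted p = 0.033). U373 monoculture replicate 3 was the highest of its group for 24 of the 36 genes and for 43.2% of all genes. Without that array CA12 alone passed (1.46, adjusted p = 0.0446), but not by its probe above background on all arrays (adjusted p = 0.104). The whole-series count of 12 became 22 without U373 monoculture replicate 3, 6 without replicate 2 of that group, 4 without replicate 1 of it or of U87MG monoculture, and 3 without U373 co-culture replicate 2.

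**Figure D3:**
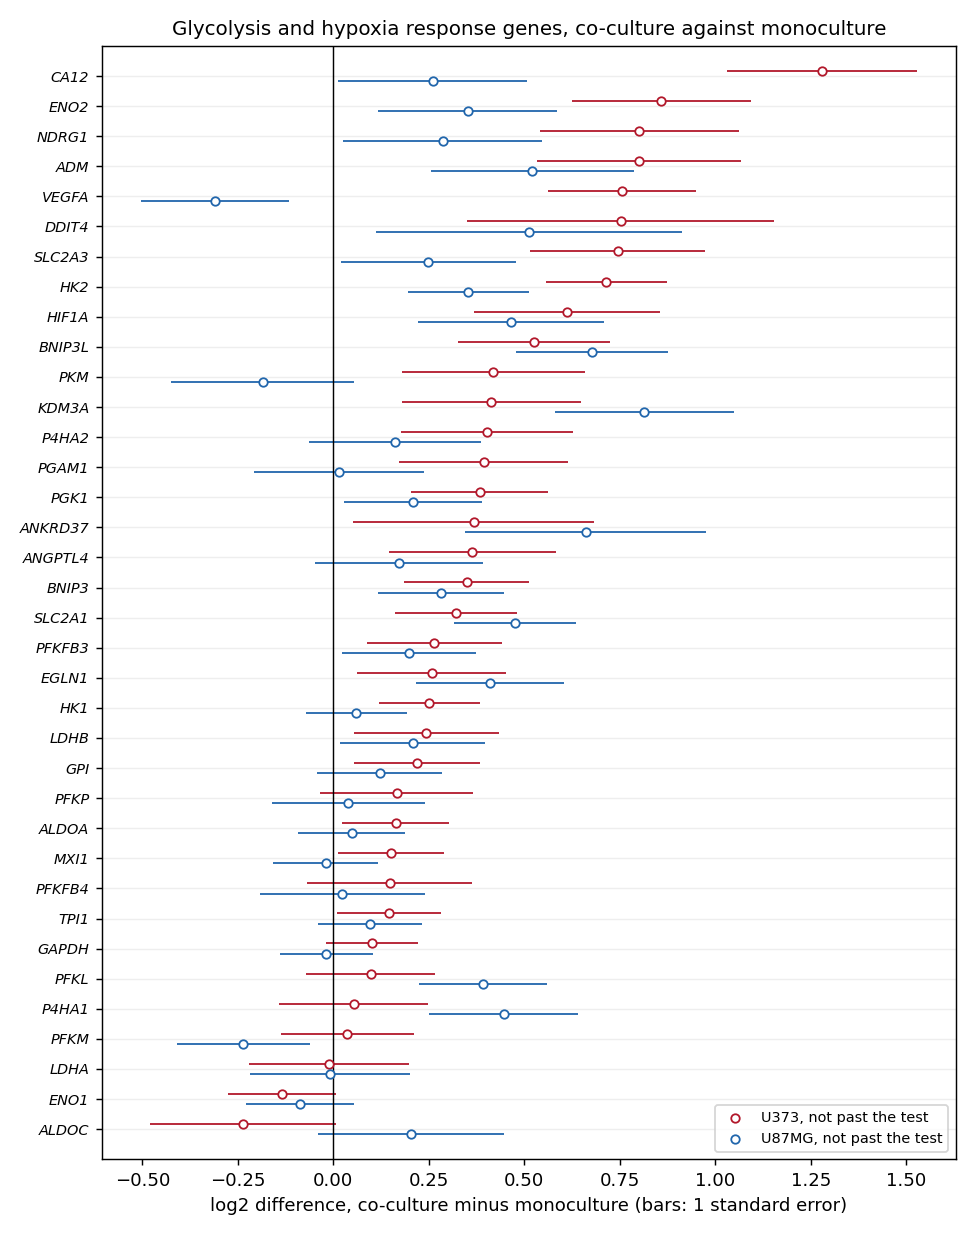
Log2 difference of the signal, co-culture minus monoculture, in U373 cells (red) and U87MG cells (blue) for the 36 tested genes, with bars of 1 standard error, ordered by the U373 difference. No gene passed an adjusted p of 0.05 in either line; 33 of the U373 points and 29 of the U87MG points lie above 0.

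In U87MG cells none of the 36 genes passed, and neither did any of the 10642 genes (0%). At an unadjusted p under 0.05 there were 6 genes, all higher in co-culture (16.7%, against 6.97% of all genes in either direction and 5.98% higher). They were KDM3A (0.81), BNIP3L (0.68), SLC2A1 (0.48), P4HA1 (0.45), PFKL (0.39, or 0.25 by its probe above background) and HK2 (0.35), with adjusted p of 0.684 to 0.704. The difference was above 0 for 29 genes (80.6%), against 63.9% of all genes, and the medians were 0.21 and 0.07. KDM3A had 6.77, 6.46 and 6.22 in U87MG co-culture, against 5.68, 5.18 and 6.14 in U87MG monoculture, and SLC2A1 had 10.93, 10.61 and 10.56 in U87MG co-culture, against 10.15, 10.20 and 10.32 in U87MG monoculture. Neither gene's groups overlapped. This held for 10 genes with co-culture higher (27.8%, against 10.5% of all genes) and for 1 with co-culture lower, VEGFA (2.78%, against 3.82%). VEGFA had a difference of -0.31 (SE 0.19, adjusted p = 0.751), and over its 2 probes above background the groups overlapped (-0.32). PFKM and PKM, next in this direction, had -0.24 and -0.18.

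The co-culture effects of the lines were set against each other as an interaction. None of the 36 genes passed, and 1 of all genes did (0.0094%). At an unadjusted p under 0.05 there were 2 of the 36 (5.56%), against 6.31% of all genes, which is a share near the background. These were VEGFA, with a difference of the effects of 1.07 (SE 0.27, unadjusted p = 0.00151, adjusted p = 0.458), and CA12, with 1.02 (SE 0.35, unadjusted p = 0.0109, adjusted p = 0.683). By probes above background they had 1.45 (VEGFA, adjusted p = 0.655) and, by the probe above it on all arrays, 0.90 (CA12, adjusted p = 0.669). PKM followed with 0.60 (SE 0.34, adjusted p = 0.83). In the other direction P4HA1 (-0.39), ALDOC (-0.44) and PFKL (-0.29) had the smallest p, with adjusted p of 0.885 to 0.907, and the P4HA1 value was 0.02 by its probe above background.

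How the genes moved together across arrays was described after each line's mean was taken away. Over the 12 arrays, 521 of the 630 pairs of the 36 genes had a correlation above 0, and the median was 0.43. BNIP3L with KDM3A (0.955), ADM with DDIT4 (0.932), EGLN1 with KDM3A (0.931) and PGK1 with ENO2 (0.93) were the closest. The points share arrays, and an array's overall shift enters every pair, so these values are a description. The difference between culture types was left in. Pairs of all tested genes were not computed, so whether these values exceed those of other genes was not tested. The median correlation of a gene with the others was highest for BNIP3 (0.68) and was below 0 for ALDOC (-0.33), ENO1 (-0.22) and PFKM (-0.22).

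**Figure D4:**
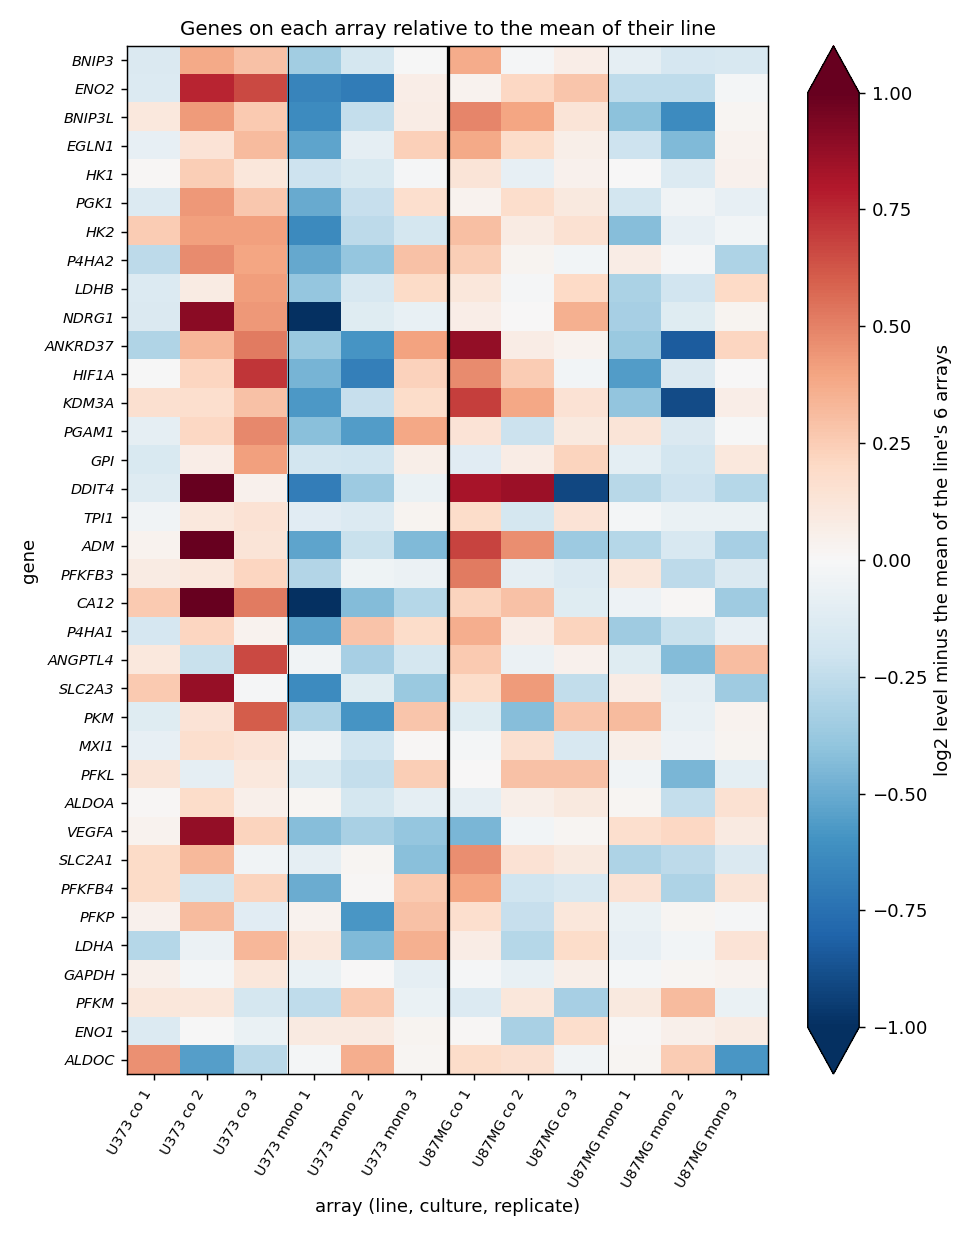
Log2 level of the 36 tested genes (rows, ordered by their median correlation with the other genes) on the 12 arrays (columns), minus the mean of the line's 6 arrays; red is above that mean and blue below, and colours end at 1 either way. U373 co-culture replicates 2 and 3 are red for most rows and replicate 1 is paler. U373 monoculture replicate 1 is the lowest of its group for 20 of the 36 genes, and for 27% of all genes.

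Further genes of the pathways were read from lists of genes outside the 41. Of 16 tested regulators of HIF, 4 were higher and 4 lower in U373 monoculture than in U87MG monoculture (25% each, against 27.9% and 31.2% of all genes). CITED4, a coactivator-binding protein, was at least 3.43-fold higher in U373 cells, with U87MG at background. CITED4 is among the 4 higher and passed the filter through other arrays, so its call is no support for a direction. ARNT2, a partner subunit of HIF-α, was higher (1.18, SE 0.15, adjusted p = 7.97e-06), and CUL2, part of the ligase that marks HIF-α for destruction, was lower (-1.36, SE 0.15, adjusted p = 1.49e-06). EPAS1, which encodes HIF-2α, did not pass (-0.27, adjusted p = 0.185). Of 32 tested further hypoxia-induced genes, 7 were higher (21.9%) and 15 lower (46.9%), with a median of -0.34. In co-culture 7 were higher (21.9%, against 25.6% of all genes) and 12 lower (37.5%, against 31.6%). MIF, a cytokine, was above background on no U373 monoculture array and was at least 186-fold lower there (adjusted p = 1.59e-12). MIF is among the 15 lower and passed the filter on dim genes through other arrays, so its call is no support for a direction. NT5E, the ectonucleotidase CD73, was lower as well (-3.94, SE 0.23). PIM1, a kinase (3.21, SE 0.34), and KLHL24 (2.70, SE 0.21) were higher.

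Among 30 tested further genes of glucose breakdown 13 were higher (43.3%, against 27.9% of all genes) and 7 lower (23.3%, against 31.2%) in U373 monoculture, with a median of 0.23. In co-culture 11 were higher and 8 lower (36.7% and 26.7%, against 25.6% and 31.6% of all genes). With U87MG monoculture at background, U373 monoculture had at least 6.65-fold more signal for the glucose transporter SLC2A10, at least 5.40-fold more for SLC2A12 and at least 5.02-fold more for SLC16A4, of the family that carries monocarboxylates. SLC2A10, SLC2A12 and SLC16A4 are among the 13, and also among the 11 in co-culture. They passed the filter on dim genes through arrays other than U87MG monoculture. Their monoculture calls are therefore no support for a direction. HKDC1, a hexokinase domain protein (-3.12, SE 0.20), and TIGAR, a phosphatase that lowers glycolytic flux (-1.79, SE 0.21), were lower. The pentose phosphate pathway branches off glucose phosphate to make NADPH and ribose. Of its 7 tested genes, 4 were higher (57.1%, against 27.9% of all genes) and 1 lower (14.3%, against 31.2%). The transketolase TKT was higher (1.20, SE 0.15, adjusted p = 5.71e-06), and its relative TKTL1 was at least 5.61-fold higher. TKTL1 is among the 4 and was at background in U87MG monoculture, so its call is no support for a direction either. Of 10 tested upstream regulators, 1 was higher (10%) and 2 lower (20%), both shares below those of all genes.

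The higher gene was TXNIP (2.98, adjusted p = 0.000516, above background on 1 of 3 U87MG monoculture arrays), an inhibitor of glucose uptake whose transcription is known to rise with glucose supply. TXNIP had 5.11, 4.25 and 4.53 in U373 co-culture, against 7.27, 7.80 and 7.07 in U373 monoculture. Every co-culture array was below every monoculture array, and the difference of -2.75 (SE 0.59, adjusted p = 0.105) did not pass. As TXNIP was above background on 1 of 3 U373 co-culture arrays, against 3 of 3 in U373 monoculture, this is no exact size. In each U87MG group it was above background on 1 of 3 arrays, and no difference is given. MYC, which induces many glycolytic genes, had a co-culture difference of 1.42 (SE 0.33, adjusted p = 0.149) in U373 cells and 0.13 (SE 0.33, adjusted p = 0.953) in U87MG cells. None of the genes of these lists passed between co-culture and monoculture in either line.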

How the data were processed

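The values analysed come from 12 BeadChip arrays. The authors deposited normalized signals as a natural log, which the study's methods describe as variance stabilization normalization of BeadStudio signals. Such a transform compresses differences between dim signals. The deposited table of non-normalized intensity values has 12 signal columns that carry no sample name. They were given to no sample, so no background correction was rerun, and 11 were not used. The other served only to check the log base, by quantiles over 1000 (slope 0.9918 against the natural log, 0.687 against log2). Division by ln(2) gave the log2 scale used here.

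Probes were named through the series' probe annotation and the RefSeq table of GRCh38.p14: 27578 of the 48803 probes matched 1 gene and were used, 13 matched several genes, and 21212 matched no gene. Probes of a gene were averaged, as in the study's methods. Of the tested genes described here, 28 had every probe above background and 8 had some that were not (HK1, PFKL, PFKP, ALDOA, VEGFA, ANGPTL4, P4HA1 and MXI1), for which the mean over all probes can differ in size or sign from the mean over the probes above background, and that mean is given where a result turns on it. The background limit of an array was set 3 SD over the mode, with the SD taken from the values below the mode. It was 4.32 to 5.70 and was passed by 23.9% to 34.6% of probes.

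Tests used limma 3.58.1 in R 4.3.3 (lmFit, contrasts.fit and eBayes) on 4 group means over all 12 arrays with no covariate (moderated degrees of freedom 14.9) and Benjamini-Hochberg adjustment. P-values measure the spread between 3 biological replicates, and the number of arrays limits the precision. The step was tested on simulated data with known differences. Same-numbered replicates deviated together at correlations of 0.124, 0.113 and 0.205 between the monocultures of the lines, 0.164, 0.155 and 0.131 between the co-cultures and 0.129, 0.174 and 0.147 between the U87MG cultures, but at 0.192, -0.102 and 0.559 between the U373 cultures. The numbers come from the sample titles, and neither labels nor methods name what they share.

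The 41 genes, the further lists and the comparisons were chosen with earlier results of these data known. Each comparison names the genes past the test, or the 3 smallest p in each direction where none passed, and each further list at most the 3 largest differences in each direction past the test, not all of which are printed. EPAS1, MYC and GFAP were named after their values were seen. Figures used Python 3.11.15 with matplotlib 3.10.9.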

Additional observations from a re-analysis of the deposited data

How the results depend on the processing

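Alternatives were a further quantile normalization, the brightest probe of a gene, probes above background only, background limits at 2 and 5 SD, no filter on dim genes, a trended and robust variance, fits of the compared groups alone, a replicate block, leaving out each array in turn and, added after seeing the data, 1 fit over single probes. In monoculture 25 to 31 of the 36 genes were called between the lines, while 5655 to 6542 of all genes were. Of the 27 calls, 23 held under every alternative. ANKRD37, BNIP3, GPI and PFKP did not. In co-culture 18 to 27 were called, while 5430 to 6324 of all genes were, and 16 of 25 calls held throughout. Counts over all genes leave out the fit over single probes. How many calls over all genes held throughout was not counted, so this is not read as a trait of the listed genes. No call between the lines reversed.

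For U373 co-culture against monoculture the count of 0 became 1 with a trended and robust variance (CA12, adjusted p = 0.0408), and it was 0 to 5 when an array was left out. With the replicate block it was 1 (CA12, adjusted p = 0.0293), although the U373 numbers do not pair by the rule of a correlation above 0.1. Both CA12 calls use a mean with a probe at background in U373 monoculture. By the other probe alone, chosen after seeing the data, CA12 did not pass with the trended variance (0.92, adjusted p = 0.117) or the block (adjusted p = 0.0568). The block added ADM, PFKL and PGK1 to the calls between the monocultures (PFKL, 0.38, adjusted p = 0.0449) and changed no other call. All counts of the 36 genes for U87MG co-culture and for the difference of the effects stayed at 0. Over all genes, the 12 calls of U373 co-culture became 3 without the filter or with the compared groups alone, 21 with the trended variance and 23 with the block.

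Some values that did not pass changed sign. LDHA in U373 co-culture against monoculture (-0.01) was -0.23 to 0.16 when an array was left out. PKM in U87MG co-culture against monoculture (-0.18) was 0.0077 by its brightest probe. The P4HA1 difference of effects (-0.39) was 0.0212 by the brightest probe, which is also its only probe above background. By probes above background, PFKL in U373 co-culture (0.10) was -0.04, and in U87MG co-culture HK1 (0.06) was -0.03 and MXI1 (-0.02) was 0.14. The cause was not tested.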
